A study of Homo sapiens with 24 samples.

Results

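Genes known to be repressed by EWSR1-FLI1, the fusion transcription factor that drives most Ewing sarcomas, were followed in ES8 cells and in a derivative edited at SLFN11. The 10 genes (TGFBR2, FOXO1, LOX, TNC, THBS1, SPP1, IGFBP3, DKK1, CDKN1C and IER3) were taken by name from 17687 measured genes. All 10 were present, each with 1 probe set. The lines differed in a few of these genes, and in opposite directions. TGFBR2 was 2.55- to 3.26-fold higher in the knockout line across the 4 conditions. LOX was called lower in all 4, with a knockout signal close to background. FOXO1 and TNC were called higher in 3 of the 4. TNC was above background on 0 of 12 parental and 6 of 12 knockout arrays. In each condition 6.27% to 6.87% of all genes were called higher and 5.09% to 5.68% lower. No member was called for 2 Gy or for harvest time, where at most 0.226% of all genes were called for irradiation and 0.695% for time.

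ES8 is a human Ewing sarcoma cell line. The derivative, ES8-1F2, was made from it with CRISPR/Cas9 directed at SLFN11, a gene whose product acts at stalled replication forks. Both lines were grown in the same medium with serum and given 0 Gy or 2 Gy of gamma radiation, and RNA was taken 4 h or 24 h later, which makes 8 groups of 3 arrays. The knockout is 1 derivative line, so the loss of SLFN11 and the derivation of that line cannot be told apart. No group lacks the fusion, so whether it represses these genes in ES8 was not tested.

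EWSR1-FLI1 joins part of EWSR1 to the DNA-binding domain of FLI1, an ETS family factor that recognises GGAA. It switches genes on from repeats of that motif and keeps others low, among them genes of mesenchymal differentiation, matrix assembly and growth inhibition. The repressed arm is known to involve the NuRD complex with the demethylase KDM1A, and the fusion target NKX2-2, which recruits TLE corepressors. TGFBR2, the ligand-binding TGF-beta receptor, IGFBP3, which binds insulin-like growth factors, and FOXO1, a forkhead factor restrained by AKT, are among its well-studied repressed genes.

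All values are log2 signals. A background level was set on each array at the 95th percentile of 612 negative control probe sets and lay between 3.46 and 3.81. SLFN11 read 8.03 to 8.63 in parental and 6.33 to 7.07 in knockout arrays, without overlap and above background on all arrays; where its probes lie against the edited site is not given in the labels. All 7 Ewing sarcoma markers measured, CD99 and NKX2-2 included, were above background on all 24 arrays. Their levels differed between the lines. At 0 Gy and 4 h, limma called CD99 (0.40), PRKCB (1.05) and LIPI (0.62) higher and STEAP1 (-0.56) lower, beside 6.27% and 5.5% of all genes. In the mean of the 4 conditions these calls remained, FLI1 (0.27) and NKX2-2 (0.56) were also called higher, and CCND1 (-0.01) was not called. Of 8 epithelial, 7 blood cell and 7 endothelial markers, limma called 0 between the unirradiated lines at 4 h, and 1, 3 and 1 had an unadjusted p below 0.05. In the mean of the 4 conditions, 0 epithelial markers were called higher and 1 lower, 0 and 2 blood cell markers, and 2 and 0 endothelial markers, beside 15.8% and 14.6% of all genes. KDR, 1 of these endothelial markers, was above background on 0 of 24 arrays, and CD3E, 1 of the blood cell markers, on 5. The part of all these markers in the members' results was not tested. Replicate 2 of both parental 2 Gy groups had the narrowest signal ranges, with interquartile ranges of 3.28 and 3.34 against 3.42 or more elsewhere, and the called line differences at 2 Gy are also given without them. Without them, as with them, 0 members were called for irradiation or harvest time. The labels do not say that replicates were separate cultures, so the tests compare against a spread that may be technical.

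**Figure D1:**
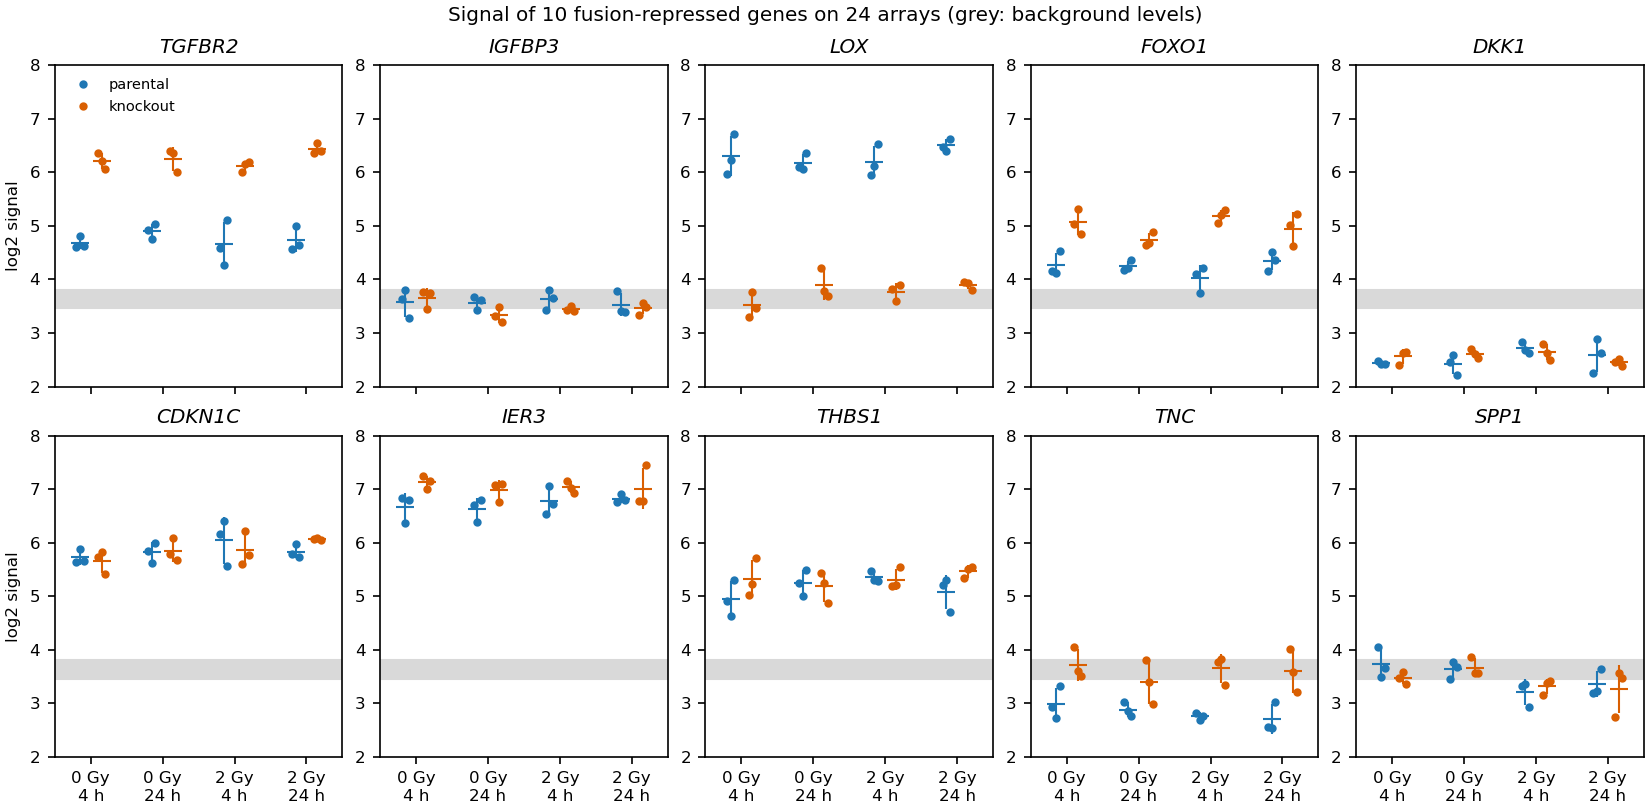
Log2 signal (y axis) of the 10 genes on each of the 24 arrays, by dose and time (x axis); blue points are parental and orange points knockout arrays, the horizontal bar is the mean of 3 arrays, the vertical bar 1 SD to each side, and the grey band the range of background levels. TGFBR2, LOX and FOXO1 separate the lines in all 4 conditions, and all DKK1 points lie under the band.

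Knockout and parental cells were compared first, at each dose and time, to ask which fusion-repressed genes differ with the SLFN11 genotype. A gene was called at a limma adjusted p below 0.05 over all 17687 genes. In unirradiated cells at 4 h, 3 of the 10 members were called higher and 1 lower, beside 6.27% of all genes called higher and 5.5% lower. At 24 h without irradiation, 1 was called higher and 1 lower, beside 6.47% and 5.09%. After 2 Gy, 3 were called higher and 1 lower at 4 h, where 6.87% and 5.13% of all genes were called, and 3 and 1 again at 24 h, beside 6.29% and 5.68%. Without irradiation the members' median difference was 0.25 at 4 h and 0.11 at 24 h, against -0.02 and -0.004 over all genes. After 2 Gy it was 0.03 at 4 h and 0.21 at 24 h, against -0.02 and -0.01.

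TGFBR2, which binds TGF-beta and then activates TGFBR1, was the member with the largest rise. Its signal in unirradiated cells at 4 h was 4.60, 4.80 and 4.62 on the parental arrays and 6.35, 6.21 and 6.06 on the knockout arrays. Over 12 arrays a line, the parental values ran from 4.26 through a median of 4.70 to 5.11, and the knockout values from 6.0 through 6.28 to 6.56. Every knockout array was above every parental array. The difference was 1.53 (SE 0.17, adjusted p = 4.4e-08) at 0 Gy and 4 h, 1.35 (SE 0.17, adjusted p = 4.8e-07) at 0 Gy and 24 h, 1.46 (SE 0.17, adjusted p = 1.2e-07) at 2 Gy and 4 h and 1.71 (SE 0.17, adjusted p = 5.0e-09) at 2 Gy and 24 h. Without the narrow-range arrays the differences at 2 Gy were 1.27 at 4 h and 1.84 at 24 h, both called.

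Of 22 other TGF-beta pathway genes measured, 1 was called higher and 3 lower at 0 Gy and 4 h, with a median difference of 0.10. The shares of all genes called there, 6.27% higher and 5.5% lower, are the background for this list and for each list below at 0 Gy and 4 h. ENG, the co-receptor endoglin, was 3.76-fold higher in knockout cells (difference 1.91, SE 0.12, adjusted p = 9.7e-14). TGFB3, a ligand, was 1.99-fold lower (adjusted p = 0.0018). TGFBR3, the co-receptor betaglycan, was at least 1.35-fold lower (mean 4.11 in parental and 3.15 in knockout cells, adjusted p = 0.0021), a bound because no knockout array of that group exceeded background. TGFBR1, SMAD2, SMAD3 and SMAD4, the receptor partner and the signal transducers, gave differences of 0.19, 0.20, -0.34 and 0.03, none of them called there.

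FOXO1 drives transcription of growth arrest and cell death genes while it is in the nucleus. At 0 Gy and 4 h its parental arrays read 4.16, 4.13 and 4.53, and its knockout arrays 5.04, 5.31 and 4.85. Across 12 arrays a line the signal lay between 3.74 and 4.53 (median 4.19) in parental and between 4.62 and 5.31 (median 5.03) in knockout cells. The lines did not overlap. FOXO1 was called higher at 0 Gy and 4 h (difference 0.79, SE 0.18, adjusted p = 0.0021), at 2 Gy and 4 h (1.16, adjusted p = 1.5e-05) and at 2 Gy and 24 h (0.61, adjusted p = 0.021). Without the narrow-range arrays the differences at 2 Gy were 1.02 (adjusted p = 0.000325) at 4 h and 0.69 (adjusted p = 0.0148) at 24 h. At 0 Gy and 24 h the difference was 0.48 (95% interval 0.12 to 0.85, adjusted p = 0.0813). The call at 2 Gy and 24 h was lost without parental replicate 1 (adjusted p = 0.108), parental replicate 3 (0.0524), knockout replicate 1 (0.0792) or knockout replicate 3 (0.145).

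Of 16 other genes of the FOXO list, its relatives, the AKT kinases and its known targets, 2 were called higher and 2 lower at 0 Gy and 4 h. CITED2 (difference 0.73) and BCL2L11 (0.48), both FOXO targets, were higher. BCL6 (-1.01), another target, and the kinase gene AKT2 (-0.55) were lower. The median over the list was -0.01.

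LOX and TNC, both of the extracellular matrix, went opposite ways. LOX encodes lysyl oxidase, a secreted enzyme that crosslinks collagen and elastin. On the arrays of unirradiated cells at 4 h it read 5.97, 6.23 and 6.71 in the parental line and 3.30, 3.77 and 3.47 in the knockout line. The 12 parental values ran from 5.95 through 6.30 to 6.71, and the 12 knockout values from 3.30 through 3.80 to 4.22. The knockout signal was close to background and exceeded it on 8 of 12 arrays, on 1 of 3 at 0 Gy and 4 h, so the difference there is taken against a signal mostly not above background. The difference was -2.79 (SE 0.19, adjusted p = 4.7e-13) at 0 Gy and 4 h, -2.28 (adjusted p = 5.7e-11) at 0 Gy and 24 h, -2.43 (adjusted p = 1.4e-11) at 2 Gy and 4 h and -2.61 (adjusted p = 2.3e-12) at 2 Gy and 24 h. LOX was thus the member with the largest difference, and it was lower in the line where TGFBR2, FOXO1 and TNC were higher. Without the narrow-range arrays it was -2.47 and -2.66 after 2 Gy. The array reads RNA of the whole culture, so fewer cells that make LOX and less LOX RNA per cell cannot be told apart.

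Among 9 other genes of collagen crosslinking, 1 was called higher and 1 lower at 0 Gy and 4 h. TLL1, a protease of the family that activates lysyl oxidase, was 2.09-fold higher, and PLOD2, a collagen lysyl hydroxylase, was 1.36-fold lower. LOXL1, the closest relative on the list, gave 0.42 there and was called higher in the mean of the 4 conditions (0.47, SE 0.080), opposite in sign to LOX; it was named after its value was seen.

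TNC encodes tenascin C, a large adhesion-modulating glycoprotein of embryonic and tumour matrix. The parental arrays at 0 Gy and 4 h read 2.92, 2.72 and 3.31, and the knockout arrays 4.06, 3.60 and 3.5. It exceeded background on 0 of 12 parental arrays (2.54 to 3.31) and on 6 of 12 knockout arrays (2.98 to 4.06), and the ranges of the lines overlap. TNC was called higher at 0 Gy and 4 h, with means of 3.72 in knockout and 2.99 in parental cells (adjusted p = 0.015). It was also called at 2 Gy and 4 h (3.65 and 2.76, adjusted p = 0.0025) and at 2 Gy and 24 h (3.60 and 2.71, adjusted p = 0.0024). In these knockout groups it exceeded background on 1, 2 and 2 of 3 arrays, and in the parental groups on none, so no fold can be read. At 0 Gy and 24 h the means were 3.39 and 2.88 (adjusted p = 0.12). Without the narrow-range arrays TNC stayed called at 2 Gy and 4 h (adjusted p = 0.015) and at 2 Gy and 24 h (0.0215). The call at 0 Gy and 4 h was lost without parental replicate 1 (adjusted p = 0.0548), parental replicate 2 (0.112) or knockout replicate 1 (0.128). At 0 Gy and 24 h it was gained without knockout replicate 3 (0.031), which took the members called higher there from 1 to 2.

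THBS1 and SPP1, the other matrix members, showed no called difference between the lines. THBS1, thrombospondin 1, is an activator of latent TGF-beta and an inhibitor of vessel growth. Its signal was 4.63 to 5.49 (median 5.27) in parental and 4.87 to 5.71 (median 5.29) in knockout arrays. The differences in the 4 conditions ran from -0.06 to 0.39, and the 95% intervals together spanned -0.46 to 0.79. SPP1, the bone matrix phosphoprotein osteopontin, stayed near background, above it on 3 parental and 2 knockout arrays of 12 each. Its differences lay between -0.26 and 0.11, where no fold can be read.

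Of 15 other matricellular proteins, 2 were called higher and 1 lower at 0 Gy and 4 h. FN1, fibronectin, was 1.52-fold and SPARC 1.43-fold higher, and THBS2, a relative of THBS1, was at least 1.39-fold lower. Of their 15 receptors, ITGB5 was called higher (0.62) and CD47, a receptor of thrombospondin, lower (-0.61). Fibroblast markers, which share matrix genes with these lists, moved in both directions. Of 8 measured, PDGFRA was called higher (0.98) and LUM lower, with 2 higher and 3 lower in the mean of the 4 conditions. Their summed linear signal was 507 to 825 in parental and 690 to 964 in knockout arrays, FAP was above background on no array and DCN on 5 of 24. The part of these markers in the matrix results was not tested.

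IGFBP3 and DKK1 encode secreted inhibitors of growth factor signalling, and both stayed at or under background. IGFBP3 carries insulin-like growth factors in the fluid outside cells. It read 3.27 to 3.80 (median 3.63) in parental and 3.20 to 3.76 (median 3.47) in knockout arrays, above background on 6 and 2 arrays of 12. Its differences ran from -0.24 to 0.08, none of them called. DKK1 blocks Wnt signalling at its co-receptors LRP5 and LRP6. It read 2.21 to 2.88 in parental and 2.38 to 2.80 in knockout arrays and exceeded background on none of the 24, so a difference of DKK1 between groups was not measurable here.

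Of 16 genes of the insulin-like growth factor axis, 1 was called higher and 2 lower at 0 Gy and 4 h. IGF1, a ligand, was 1.85-fold higher, while its receptor gene IGF1R was 1.76-fold lower and PAPPA, a protease that cuts binding proteins, 1.75-fold lower. Of 21 Wnt inhibitors, receptors and targets, 2 were called higher and 1 lower. DKK2, a relative of DKK1, was 1.52-fold higher, LRP6 was 1.29-fold higher and AXIN2, a target of the pathway, was 2.05-fold lower.

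CDKN1C and IER3 act inside the cell. CDKN1C, an inhibitor of cyclin-dependent kinases from an imprinted locus, read 5.56 to 6.39 (median 5.82) in parental and 5.41 to 6.22 (median 5.81) in knockout arrays. Its differences ran from -0.17 to 0.23, and the mean over the 4 conditions was 0.00 (95% interval -0.18 to 0.19). Of 6 other genes named as CDK inhibitors, whatever their action, CDKN1A (1.96-fold) and CDKN3 (1.43-fold) were called higher at 0 Gy and 4 h and none lower.

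IER3 is an early response gene of stress and growth signals. At 0 Gy and 4 h its parental arrays read 6.84, 6.36 and 6.80 and its knockout arrays 7.24, 7.01 and 7.14, without overlap. The difference there was 0.46 (SE 0.16, adjusted p = 0.0564). With replicate numbers blocked in the fit, as they paired the samples of this comparison, IER3 was called (adjusted p = 0.0255). It was also called without parental replicate 1 (0.0477), and without parental replicate 2 the adjusted p was 0.365. The differences in the other conditions were 0.36, 0.26 and 0.19, none of them called. Of 9 other genes of the early response list, EGR1 (2.73-fold) and IER5 (1.74-fold) were called higher at 0 Gy and 4 h and none lower.

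**Figure D2:**
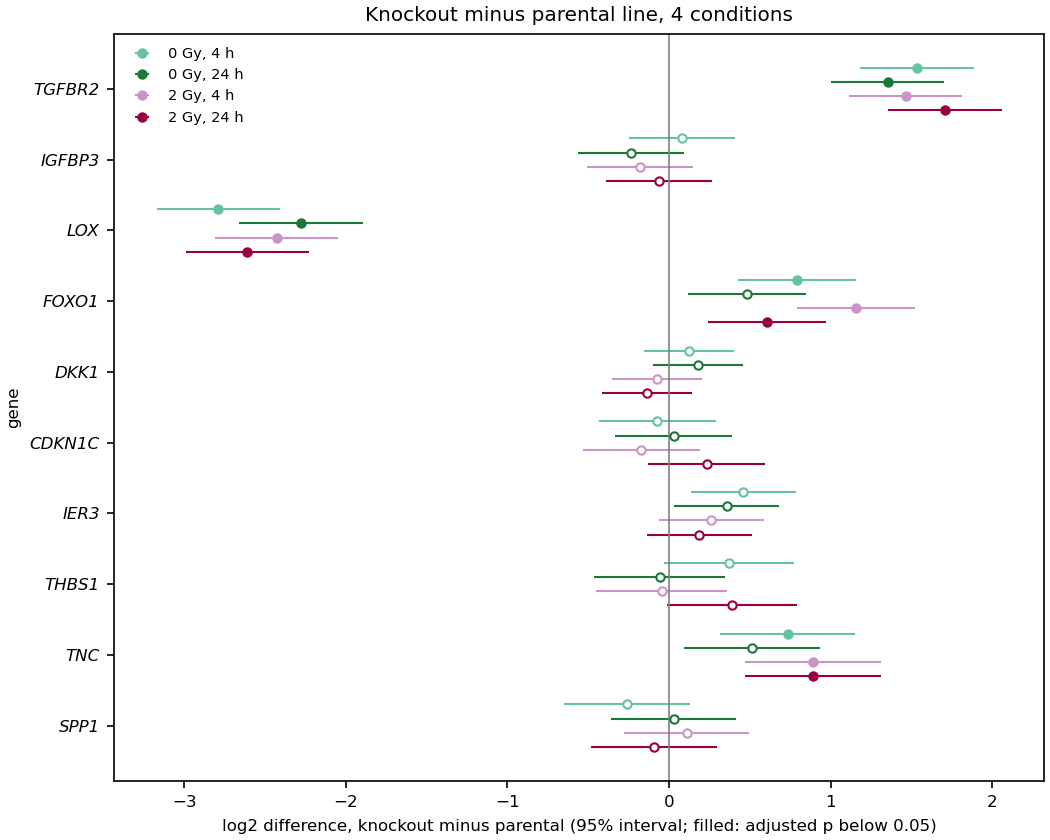
Log2 difference, knockout minus parental (x axis), of each of the 10 genes (y axis) in 4 conditions marked by colour; lines are 95% intervals and filled points have an adjusted p below 0.05. TGFBR2 lies between 1.35 and 1.71 and LOX between -2.79 and -2.28, and the other 8 genes lie between -0.26 and 1.16.

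Averaging the 4 conditions, a comparison of 12 against 12 arrays chosen after the data were seen, called 4 members higher and 1 lower, beside 15.8% and 14.6% of all genes. The differences were 1.51 (SE 0.086) for TGFBR2, 0.76 (SE 0.090) for FOXO1, 0.32 (SE 0.080) for IER3 and -2.53 (SE 0.094) for LOX. TNC was called at means of 3.59 in knockout and 2.83 in parental arrays, of which no parental array exceeded background. IER3 was the only member called there and in none of the 4 conditions, with an adjusted p of 0.0021 and overlapping ranges of 6.36 to 7.06 and 6.76 to 7.45.

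The promoters of the 4 members called in at least 3 conditions were read from RefSeq (GRCh38.p14), because GGAA is the core motif of the ETS domain in the fusion. The 250 bases before the most upstream start of each gene are printed 5′ to 3′ on the gene's strand, with GGAA, or TTCC for a match on the other strand, in capitals. TGFBR2 is at chr3:30606106-30606355 (plus strand), LOX at chr5:122078260-122078509 (minus), FOXO1 at chr13:40666642-40666891 (minus) and TNC at chr9:115118158-115118407 (minus).
TGFBR2: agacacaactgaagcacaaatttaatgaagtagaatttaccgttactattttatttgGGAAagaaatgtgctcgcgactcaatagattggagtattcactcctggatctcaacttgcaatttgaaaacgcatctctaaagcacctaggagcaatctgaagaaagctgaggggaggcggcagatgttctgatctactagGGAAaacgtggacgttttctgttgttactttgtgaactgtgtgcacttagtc
LOX: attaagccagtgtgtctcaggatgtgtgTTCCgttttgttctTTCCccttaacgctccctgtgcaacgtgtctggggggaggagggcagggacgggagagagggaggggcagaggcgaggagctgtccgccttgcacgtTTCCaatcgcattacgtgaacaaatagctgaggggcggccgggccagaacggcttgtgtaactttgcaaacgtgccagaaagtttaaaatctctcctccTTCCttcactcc
FOXO1: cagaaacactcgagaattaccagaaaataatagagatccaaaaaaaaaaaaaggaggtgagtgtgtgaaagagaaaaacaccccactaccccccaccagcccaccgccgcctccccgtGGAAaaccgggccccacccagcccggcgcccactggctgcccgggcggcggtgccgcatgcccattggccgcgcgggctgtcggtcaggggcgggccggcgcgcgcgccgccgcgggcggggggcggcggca
TNC: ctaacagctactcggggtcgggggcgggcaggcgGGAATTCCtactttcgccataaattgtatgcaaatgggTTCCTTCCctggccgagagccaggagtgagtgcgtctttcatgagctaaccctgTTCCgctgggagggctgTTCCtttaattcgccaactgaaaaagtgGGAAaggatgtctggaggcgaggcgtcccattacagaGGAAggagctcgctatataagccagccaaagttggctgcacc

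These windows held 2 GGAA matches for TGFBR2, 4 for LOX, 1 for FOXO1 and 8 for TNC, counted on both strands. Of the 10 members, 8 had an entry in the table, and IGFBP3, DKK1 and SPP1 held 1 match each and THBS1 4. Over 27305 promoter windows of the same length, 92.8% held at least 1 match, with a median of 3, and 1.7% held 8 or more. The cut of 8 is the count of TNC itself, the highest of the 8 members with an entry. TNC had 1 match to GGAAGGAA, a pair of motifs in tandem that overlaps the GGAA count and that 3.0% of all windows held. A match describes the letters only, and binding of the fusion was not measured.

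Each member was then set beside its chromosome neighbours, the 10 nearest measured genes on each side in RefSeq order, as a description with no test. TGFBR2 on chromosome 3 lies among genes that were also higher in the knockout line. The median of its 20 neighbours was 0.38 at 0 Gy and 4 h, 0.52 at 0 Gy and 24 h, 0.41 at 2 Gy and 4 h and 0.45 at 2 Gy and 24 h, with 10 to 12 of the 20 called higher and 0 lower. TGFBR2 exceeded that median by 0.83 to 1.26 and ranked 3 of 21 in each condition. In the mean of the 4 conditions, GADL1 beside it (1.90) and CMTM7 (2.95) were above it, both named after their values were seen. Around LOX on chromosome 5 the median was -0.16 to -0.09, around FOXO1 on chromosome 13 it was 0.03 to 0.11, and around TNC on chromosome 9 it was -0.04 to 0.08. The copy number of these stretches was not measured, and its part in the TGFBR2 difference was not tested.

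**Figure D3:**
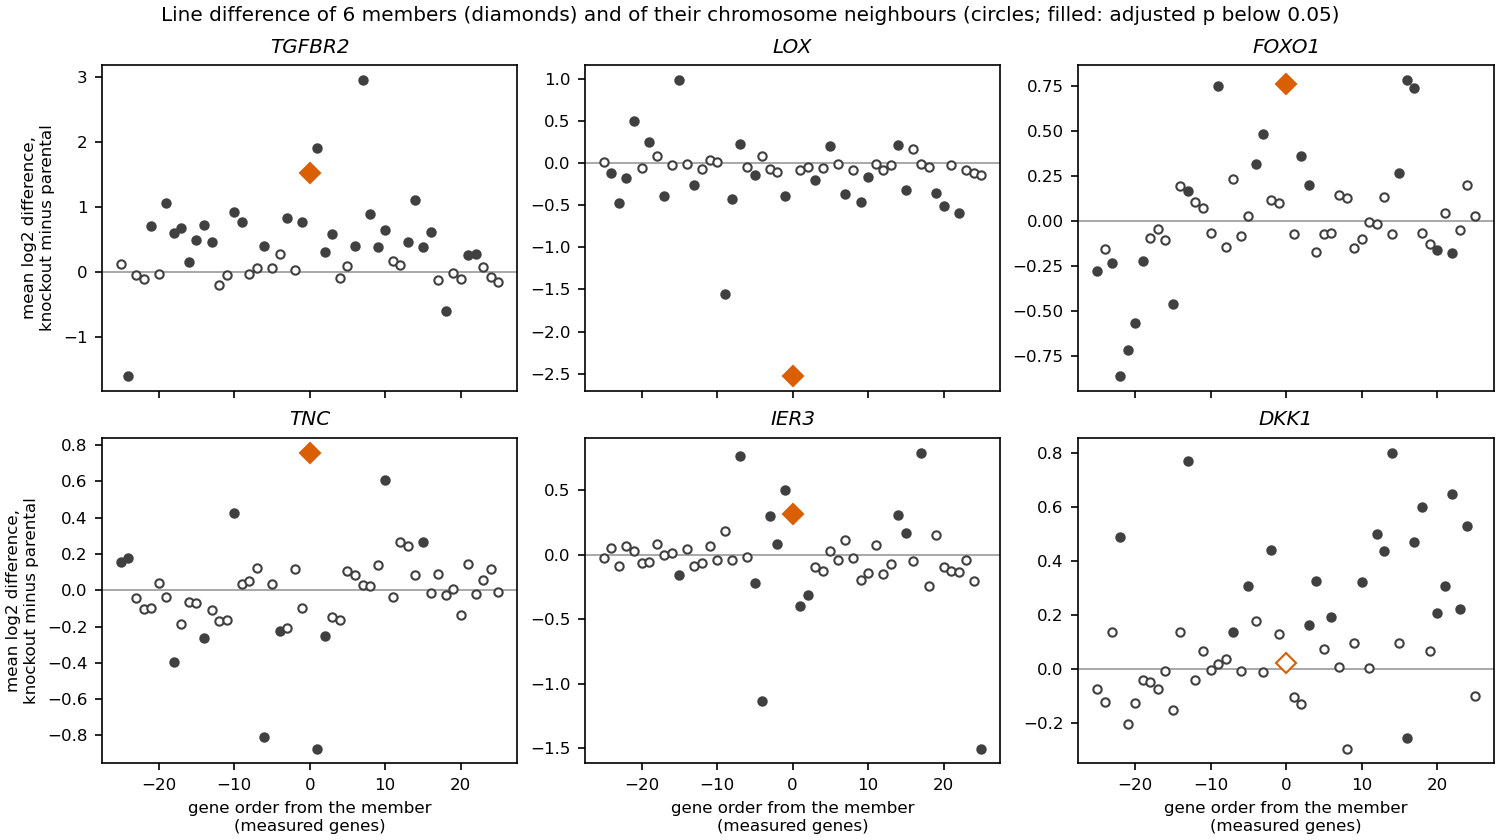
Mean log2 difference over the 4 conditions, knockout minus parental (y axis, scaled for each gene), of 6 members (orange diamonds) and up to 25 measured genes on each side (circles, x axis in gene order); filled symbols have an adjusted p below 0.05. Most of the genes nearest TGFBR2 lie above 0, with 13 of the 20 nearest called higher and 0 lower, while LOX lies at -2.53, below all of its neighbours shown.

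The genes most like TGFBR2 and LOX over the 8 group means were found by the smallest root mean square difference of centred values among 13271 genes above background in at least 1 group. RAB3B (0.091), a vesicle-trafficking GTPase gene, and ZHX1-C8orf76 (0.094) came closest to TGFBR2. The latter is a readthrough transcript that shares sequence with ZHX1 and C8orf76, so its signal is uncertain. GRB14 (0.092), an adaptor of the insulin receptor, and MFAP4 (0.13), a microfibril protein, came closest to LOX. These are likenesses of 8 points that mainly carry the line difference, which was 1.57 for RAB3B and -2.43 for GRB14 in the mean of the 4 conditions.

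Other genes of the fusion's programme were compared in the same way. Of 13 measured genes of the fusion and its corepressors, 0 were called at 0 Gy and 4 h. At 0 Gy and 24 h 3 were called higher and 2 lower, at 2 Gy and 4 h 2 and 0, and at 2 Gy and 24 h 1 and 3. In these 3 conditions 6.29% to 6.87% of all genes were called higher and 5.09% to 5.68% lower. In the mean of the 4 conditions 4 of the 13 were called higher and 4 lower, beside 15.8% and 14.6% of all genes. FLI1 was higher by 0.27 (SE 0.051), NKX2-2 by 0.56 (SE 0.090), and TLE1 and TLE4 by 0.37 each; BCL11B (-0.45), HDAC1 (-0.24), HDAC2 (-0.21) and TLE3 (-0.13) were lower, and EWSR1 gave -0.09 (adjusted p = 0.070). The FLI1 probe set cannot tell the fusion from FLI1 itself.

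Among 11 further fusion-repressed genes outside the 10, 1 was called higher and 2 lower at 0 Gy and 4 h, beside 6.27% and 5.5% of all genes. The cell cycle inhibitor gene CDKN1A rose by 0.97 (SE 0.23), and SPRY1 (-2.29), a brake on receptor tyrosine kinase signalling, and JAG1 (-0.81), a Notch ligand, were lower. Of 25 measured genes that the fusion switches on, 6 were called higher and 10 lower, with PRKCB (2.08-fold) and TNFAIP6 (2.00-fold) the largest rises and PPP1R1A (4.20-fold) and GLI1 (1.83-fold) the largest falls.

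Irradiation was compared next, 2 Gy against 0 Gy in each line at each time. No member was called in any of the 4 comparisons, by limma after adjustment. In parental cells 0.226% of all genes were called at 4 h and 0.0678% at 24 h, and in knockout cells 0% at both times. At an unadjusted p below 0.05, 2 of the 10 members passed in parental cells at 4 h, 0 at 24 h, 0 in knockout cells at 4 h and 1 at 24 h, beside 1183, 1225, 583 and 736 of all genes. Replicate numbers were taken to pair the knockout samples at 4 h. With the replicate block, fitted over all 24 arrays, 11 genes were called in that comparison, no member among them.

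SPP1 in parental cells at 4 h read 4.04, 3.49 and 3.66 without and 3.33, 3.36 and 2.93 with 2 Gy, and the groups did not overlap. It was not called (means 3.73 and 3.20, adjusted p = 0.569), and only 1 of these 6 arrays was above background. THBS1 gave 0.41 in parental cells at 4 h (95% interval 0.01 to 0.81, adjusted p = 0.743), from 4.91, 4.63 and 5.30 to 5.47, 5.31 and 5.29, which overlap. CDKN1C, a cell cycle inhibitor, lay between 0.01 and 0.31 in the 4 comparisons. The fitted 95% intervals of all 10 members over the 4 comparisons reached from -0.92 (SPP1) to 0.81 (THBS1).

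**Figure D4:**
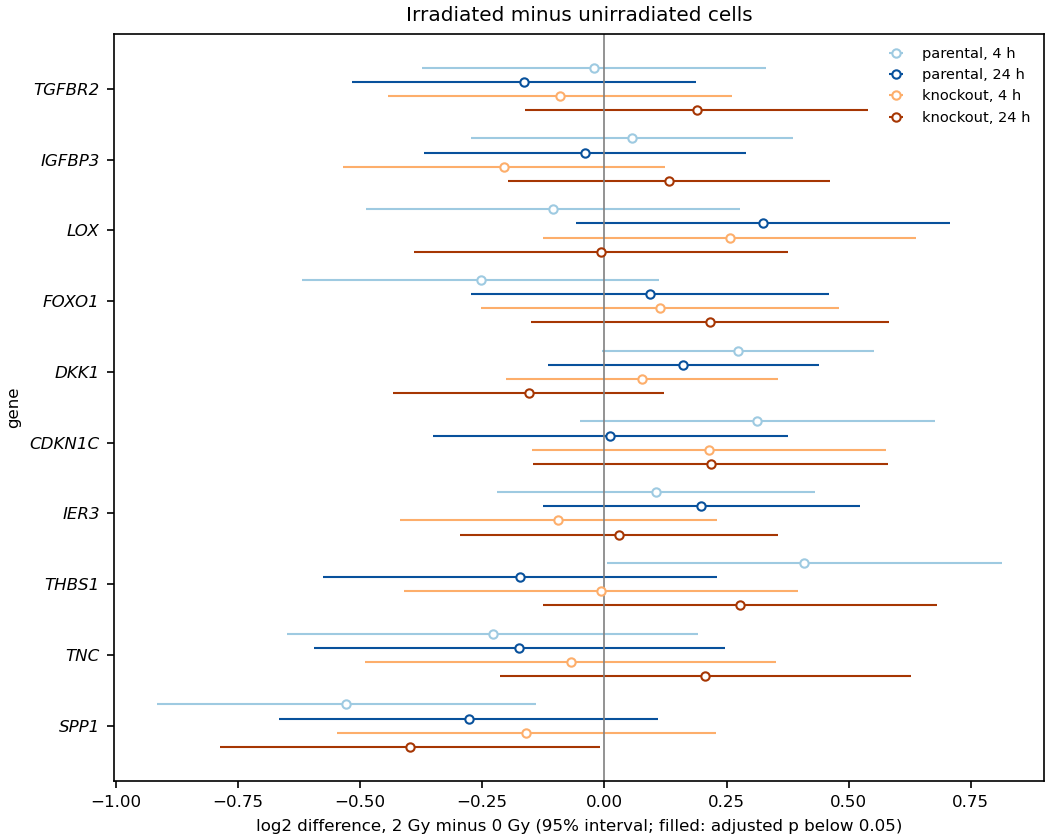
Log2 difference, 2 Gy minus 0 Gy (x axis), of the 10 genes (y axis) in each line at each time, marked by colour; lines are 95% intervals and open points have an adjusted p of 0.05 or more. All points are open and lie between -0.53 and 0.41.

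Harvest time, 24 h against 4 h, called 0 of 10 members in each of 4 comparisons. Of all genes, 0% were called in unirradiated parental cells, 0.695% in irradiated parental cells, 0% in unirradiated knockout cells and 0.0452% in irradiated knockout cells. The members' differences lay between -0.33 (FOXO1, unirradiated knockout cells) and 0.39 (LOX, in the same cells, 95% interval 0.00 to 0.77, adjusted p = 0.724). LOX was near background in those cells, above it on 1 of 3 arrays at 4 h and 2 of 3 at 24 h. At an unadjusted p below 0.05, LOX there was the only member to pass, beside 1215 of all genes, and no member passed in the other 3 comparisons, where 830, 1556 and 1405 genes did.

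The irradiation response itself was compared between the lines. No member was called at 4 h or at 24 h, where 0% of all genes were called at either time, and no member had an unadjusted p below 0.05, beside 461 and 560 of all genes. At 4 h the members' response differences, knockout minus parental, ran from -0.42 (THBS1, 95% interval -0.99 to 0.15) to 0.37 (SPP1, -0.18 to 0.92). SPP1 was near background in these groups, with no knockout array above it. At 24 h they ran from -0.33 (LOX, -0.87 to 0.21) to 0.45 (THBS1, -0.12 to 1.02). All of these intervals include 0.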

How the data were processed

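RNA of 24 samples of ES8 and ES8-1F2 cells was measured on Affymetrix whole-transcript arrays, and samples were grouped by line, dose and time from their titles. Each deposited value is the log2 signal of a probe set, which the authors made with RMA in Affymetrix Expression Console 1.1, per the submitters' processing notes. RMA subtracts background, forces all arrays to 1 distribution and summarises probes, so a shift shared by most genes would be removed. The sources used here do not say which arrays went into 1 normalization. Arrays carry no read depth, and their number limits the precision.

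Of 24351 probe sets, 17709 had 1 gene symbol in the platform annotation, all matched by gene ID to RefSeq, and gave 17687 genes, with the highest-mean probe set kept for 20 genes. Groups were compared with limma 3.58.1 in R 4.3.3 (lmFit, eBayes with intensity trend) over all 24 arrays with 1 mean per group and no filter, in 14 comparisons. Calls have a Benjamini-Hochberg adjusted p below 0.05 over all genes. A fold is given as "at least" where no array of the dimmer group exceeded background, computed against the higher of background and signal. None is given where the brighter group was itself near background, as for TNC and SPP1. Only the limma fit was tested on simulated data, with independent noise on each array and for the line comparison at 0 Gy and 4 h.

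The 10 members, the other lists and the tests were chosen with earlier results of these data known. From each other list the text names up to 2 called genes with the largest rise and 2 with the largest fall at 0 Gy and 4 h without overlap, and for TGFBR2 and LOX the 2 likest genes. Genes named for other reasons are FLI1, EWSR1 and their cofactors, some TGF-beta genes, some cell type markers and those said to be named after their values were seen. Replicate numbers in the titles were taken to pair samples where all 3 pairs of a comparison correlated above 0.1 in their deviations from group means. They did so in 4 of 12 comparisons of 2 groups, between the lines at 0 Gy and 4 h (0.10 to 0.17) and at 2 Gy and 24 h (0.15 to 0.23), and for irradiation of knockout cells at 4 h (0.15 to 0.27) and 24 h (0.13 to 0.24). Alternatives were a filter on dim genes, array weights, a replicate block, no trend, other scalings, other probe set and neighbour rules, and leaving out arrays. The block fitted a common effect of each replicate number over all 24 arrays, also where the numbers were not taken to pair samples.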

Additional observations from a re-analysis of the deposited data

How the results depend on the processing

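In the 4 line comparisons, 7 of 210 recomputations lost the call of a called member, and 0 changed its sign. Every alternative kept the calls of TGFBR2 and LOX in all 4 conditions, the number of members called lower at 1, and the number called for irradiation, time or response difference at 0. The number of members called higher at 0 Gy and 24 h was 1, but 2 with array weights, through TNC (adjusted p = 0.0363), and 1 to 2 when single replicates were left out. IER3 at 0 Gy and 4 h, not called in the main analysis, was called with array weights (0.0337), with arrays centred on their median (0.0393), without the narrow-range arrays (0.0419) and with only the compared arrays (0.0276). The replicate block added IER3 at 0 Gy and 4 h (0.0255), which took the members called higher there from 3 to 4, and changed no other call of a member. Over all genes the block raised calls by over 1.5 times for irradiation of parental cells at 4 h (40 to 61) and 24 h (12 to 60) and of knockout cells at 4 h (0 to 11). It did so too for time in irradiated parental cells (123 to 294), in unirradiated (0 to 18) and irradiated (8 to 92) knockout cells and in unirradiated parental cells (0 to 1), and for the response difference at 24 h (0 to 3). The cause of these changes was not tested. With 25 neighbours on each side, TGFBR2 exceeded its neighbours at 0 Gy and 24 h by 1.05, against 0.83. With only neighbours above background, the median around TGFBR2 was higher in each condition. It was 0.53 and 0.57 at 0 Gy (4 h and 24 h), against 0.38 and 0.52, and 0.49 and 0.63 at 2 Gy, against 0.41 and 0.45. Other scalings moved the median of all genes by at most 0.03. The filter kept 14031 genes and 9 members and dropped DKK1, whose signal stayed under background, as did that of TNC in the parental line.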
